A study of Mus musculus with 2 samples.

Results

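Myb peaks in the first introns of protein-coding genes were described from 1 ChIP-Seq library of WT mouse bone marrow. A peak was counted as a first-intron peak if its summit lay more than 3 kb from every annotated transcript start, inside a protein-coding gene and outside all exons, within intron 1 of that gene's protein-coding transcript with the longest genomic span. Annotation was GENCODE release M21 on the mm10 (GRCm38) build. The rule used position alone, with no measured value, and found 2297 of the 25793 Myb peaks, or 8.91% (95% interval, 8.56% to 9.26%). These were 20.98% of the 10948 peaks that lay more than 3 kb from every start. The other peaks used for comparison were 3317 in later introns, 4313 in intergenic sequence and 14845 within 3 kb of a start. Later introns were all other non-exon sequence of protein-coding genes more than 3 kb from every start. They therefore include intron 1 of transcripts other than the one chosen for each gene.

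Bone marrow of WT mice was depleted of cells that carry mature lineage markers, and the remaining Lin- cells, in which hematopoietic stem and progenitor cells (HSPCs) are concentrated, had a purity above 80%. Chromatin was precipitated with an antibody against Myb or with normal rabbit IgG, and the labels call both precipitates WT. In the study's methods, WT mice carry Ep300 fl/fl without the Mx1-Cre transgene and received poly(I:C), an inducer of interferon, as the mice with Cre did. All mice were on a C57BL/6 background, and both sexes were used. Which sex and age, and whether injected Ep300 fl/fl mice, gave the cells of these libraries is not stated there. There was 1 Myb library and 1 IgG library, so no value below has a replicate error, no p-value was computed, and the intervals cover counting error over peaks, genes or reads only. A peak list cannot show whether the cells carried the markers of the Lin- fraction, and Myb bound weakly in many cells cannot be told apart from Myb bound in few of them.

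Myb is a transcription factor that hematopoietic progenitors need in order to proliferate and to keep their immature state, and it recruits the acetyltransferase p300 to chromatin. Its DNA-binding domain reads a short word with the core AAC. Introns are spliced out of the transcript, but the first intron is often long, lies close to the promoter and in many blood genes holds enhancers, which are stretches of DNA where factors bind and from which they raise transcription.

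Summit sequences of the strongest first-intron peaks are shown for the 3 situations that occurred, with the strongest peak of several gene groups beside the strongest peaks of the list. Each is the 101-bp window centered on the summit, read on the plus strand of GRCm38 from the RefSeq assembly. In the first set, the capitals mark a Myb word, which was taken as CAACGG or CAACTG or TAACGG or TAACTG on either strand. Dapp1, Sipa1l1 and Cpne2 were among the strongest peaks of all, and Ptpre, Cd44 and Asxl1 held the strongest peaks of the signaling, adhesion and chromatin gene lists described below.
Dapp1 (chr3:137969141-137969241): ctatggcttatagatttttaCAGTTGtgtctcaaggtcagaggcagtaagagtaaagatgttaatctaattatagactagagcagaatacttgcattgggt
Sipa1l1 (chr12:82226065-82226165): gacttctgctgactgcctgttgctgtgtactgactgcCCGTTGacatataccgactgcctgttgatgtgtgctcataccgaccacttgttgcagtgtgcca
Cpne2 (chr8:94541464-94541564): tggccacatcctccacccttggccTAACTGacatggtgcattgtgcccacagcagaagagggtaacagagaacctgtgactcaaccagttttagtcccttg
Ptpre (chr7:135598726-135598826): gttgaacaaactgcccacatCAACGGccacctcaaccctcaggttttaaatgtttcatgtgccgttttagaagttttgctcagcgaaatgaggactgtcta
Cd44 (chr2:102867640-102867740): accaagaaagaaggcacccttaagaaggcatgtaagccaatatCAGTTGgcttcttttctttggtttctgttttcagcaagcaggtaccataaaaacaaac
Asxl1 (chr2:153351080-153351180): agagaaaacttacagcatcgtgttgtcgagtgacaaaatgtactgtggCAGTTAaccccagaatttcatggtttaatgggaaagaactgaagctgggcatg

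Other peaks of similar strength had no Myb word within 50 bp of the summit. In the next pair, the capitals mark a word of the GATA factors, AGATAA or TGATAA on either strand.
Fam117a (chr11:95356713-95356813): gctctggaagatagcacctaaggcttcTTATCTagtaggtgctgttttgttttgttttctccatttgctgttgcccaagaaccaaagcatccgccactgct
Mdga1 (chr17:29860002-29860102): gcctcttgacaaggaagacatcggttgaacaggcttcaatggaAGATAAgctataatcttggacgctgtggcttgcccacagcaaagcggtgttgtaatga

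In a further pair, neither word was present, although Elf1 held the strongest peak among the blood transcription factors and Igf1r the strongest among the receptors. The windows of Cuedc1, Gm20388, Gda and Csmd1, which are not printed, also held neither word.
Elf1 (chr14:79521797-79521897): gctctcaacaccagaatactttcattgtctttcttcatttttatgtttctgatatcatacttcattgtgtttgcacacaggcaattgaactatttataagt
Igf1r (chr7:67985198-67985298): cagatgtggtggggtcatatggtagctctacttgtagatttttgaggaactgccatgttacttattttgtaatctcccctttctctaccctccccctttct

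Among the 12 first-intron peaks with the highest fold enrichment, 5 had a Myb word within 50 bp of the summit. Fold enrichment is the authors' ratio of Myb signal to background from the IgG library at the summit. A constant is added to both sides, which lowers it below the plain ratio of reads. The background at first-intron summits had a median of 2.00 reads at the scale of the IgG library. Its lowest level was a genome-wide value of 1.463 reads, so it was not always the IgG signal at the summit itself. The highest was 26.6 in Dapp1, which encodes a phosphoinositide-binding adaptor of B cell signaling. Its summit was covered by 96 Myb reads (exact Poisson 95% interval, 77.8 to 117), and the peak lay 12354 bp from the start of the host transcript. Sipa1l1, a GTPase-activating protein for Rap, followed with a fold enrichment of 26.4 and 112 reads (92.2 to 135). These 2 read intervals overlapped, and no order between the peaks was read from them.

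Ap3s1, a subunit of the AP-3 adaptor complex of vesicle transport, had a peak of 22.9-fold enrichment with a Myb word 14 bp from the summit. Mcu, the pore of the mitochondrial calcium uniporter, had an 18.9-fold peak with 2 Myb words, the nearer of them 1 bp from the summit. The remaining members of the top 12 were Fam117a at 22.0, Mdga1 at 21.8, Cpne2 at 21.6, Cuedc1 at 21.3, Gm20388 at 21.3, Gda at 19.8, Sgms2 at 18.4 and Elf1 at 18.3. They came from genes of unlike function, including the calcium-dependent lipid binder Cpne2, the guanine deaminase Gda and the sphingomyelin synthase Sgms2.

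Most first-intron peaks were far weaker than these. The median fold enrichment was 4.44 (4.37 to 4.47), with quartiles of 3.71 and 5.72 and a lowest value of 1.91. The median was 4.47 (4.45 to 4.51) in later introns, whose interval overlapped that of first introns. It was slightly higher in intergenic sequence, at 4.63 (4.51 to 4.69), and within 3 kb of a start, at 4.54 (4.51 to 4.60), with intervals that did not overlap that of first introns. Coverage at the summit had a median of 17 Myb reads, and fewer than 20 reads covered 62.3% of the summits, against 60.5% in later introns, 56.99% in intergenic sequence and 53.6% within 3 kb of a start. Fold enrichments near the median were therefore not ranked against each other. The distance limit of 3 kb did not fall at a step in strength. The 193 members that lay 3 to 3.5 kb from the nearest start had a median of 4.37, and the 263 peaks of first introns at 2.5 to 3 kb, just outside the rule, had a median of 4.31.

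First introns held more Myb peaks per length than later introns did. They made up 24.1% of the protein-coding intron sequence that satisfied the rule, but held 40.9% of the peaks in it (39.6% to 42.2%). The density was 12.6 peaks per Mb (12.1 to 13.1) over 182 Mb of first introns and 5.79 peaks per Mb (5.60 to 5.99) over 573 Mb of later introns, a ratio of 2.18 (2.06 to 2.30). When intron 1 of any protein-coding transcript counted as a first intron, 2847 peaks lay there and the ratio was 2.13 (2.02 to 2.24). First introns lie nearer to transcript starts, and density fell with distance from the nearest start in both classes. The ratio was therefore also taken within distance classes. At 3 to 5 kb from the nearest start it was 2.36 (2.10 to 2.65), with 22.6 peaks per Mb in first and 9.59 in later introns. It was 1.97 (1.79 to 2.17) at 5 to 10 kb, 1.92 (1.72 to 2.14) at 10 to 20 kb and 1.65 (1.44 to 1.89) at 20 to 50 kb. At 50 to 100 kb the ratio was 1.16, and its interval of 0.841 to 1.57 included 1. At the later-intron density of each distance class, first introns would have held 1175 peaks, so the ratio at equal distance was 1.96.

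**Figure D1:**
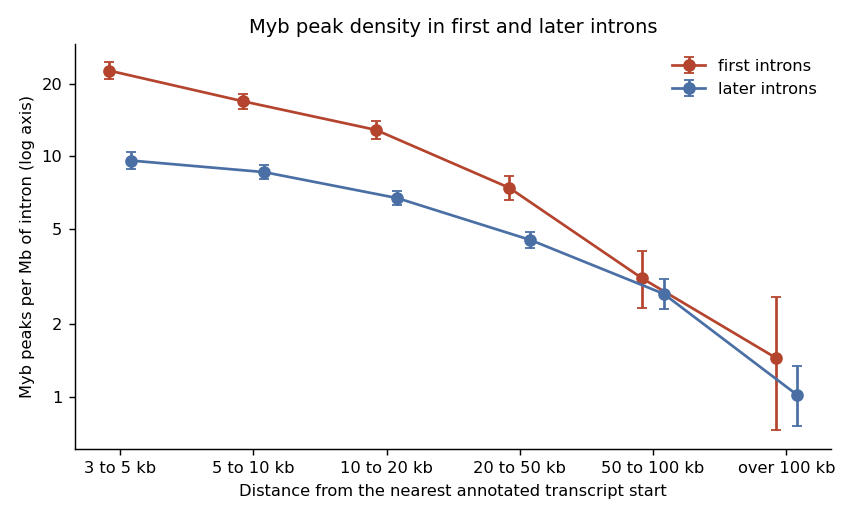
Density of Myb peaks, in peaks per Mb of intron sequence on a log axis, against the distance from the nearest annotated transcript start, for first introns and later introns. Points are counts divided by eligible sequence and bars are 95% intervals. First introns lie above later introns up to 50 kb, from 22.6 against 9.59 peaks per Mb at 3 to 5 kb, and the intervals overlap beyond 50 kb.

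The difference between first and later introns was also present when both classes came from the same genes. Peaks and bases were pooled over the genes and not paired by gene, so a difference inside single genes was not measured. The ratios below were also not taken within classes of distance from a start. In the 7687 protein-coding genes that had eligible sequence in both classes, first introns held 12.6 peaks per Mb and later introns 5.41, a ratio of 2.32 (2.19 to 2.47). In the genes with a Myb peak at a promoter of their own, the densities were 29.0 and 10.9 peaks per Mb, a ratio of 2.66 (2.49 to 2.85). In the genes without a promoter peak they were 3.202 and 2.24, a ratio of 1.43 (1.25 to 1.63). First introns of X-linked genes had 3.72 peaks per Mb (2.54 to 5.25), against 13.1 (12.5 to 13.6) on the autosomes. The copy number of the X depends on the sex of the mice, and its part in this difference was not tested. The ratio of first to later introns on the X was 2.97 (1.78 to 4.97).

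Within their introns, the peaks were spread over the whole length. The median summit lay 15977 bp (14893 to 17195) from the start of the host transcript. The median host intron was 36792 bp long when introns were counted once per peak. The median eligible first intron was 12295 bp long when introns were counted once per gene. Introns with many peaks weigh more in the former, so these medians are not a like comparison. Density fell with distance from the host start, from 27.3 peaks per Mb (24.5 to 30.3) at 3 to 5 kb to 12.6 (11.6 to 13.7) at 20 to 50 kb and 4.67 (4.02 to 5.40) beyond 100 kb. When each intron was divided into 5 equal parts, the density was 13.7 peaks per Mb in the part next to the first exon and 10.7 in the part next to the second exon, and the intervals, 12.4 to 15.2 and 9.72 to 11.8, did not overlap. Strength did not fall with distance. The median fold enrichment was 4.25 (4.15 to 4.42) at 3 to 5 kb and 4.95 (4.48 to 5.21) beyond 100 kb, where there were 151 peaks. The class beyond 100 kb includes peaks of Gm20388, a gene model with a first intron of 4384418 bp and 92 first-intron peaks, described below. Neither the density nor the strength beyond 100 kb was recomputed without it. The nearest annotated start belonged to the host gene for 75.2% of the peaks (73.4% to 77.0%), but it was the start of the host transcript itself for 15.6%, and for the rest of these another annotated transcript of the host gene started nearer. Another protein-coding gene had the nearest start for 4.57% of the peaks.

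Repeat sequence was under-represented. The summit lay in a repeat, as soft-masked in the reference, for 15.0% of first-intron peaks (13.6% to 16.5%), whereas 29.6% of the eligible first-intron bases were masked. Reads of low mapping quality had been removed before peaks were called, and the part of this step in the difference was not tested. In later introns 12.4% of the summits (11.3% to 13.6%) lay in a repeat, of 29.8% of the bases.

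At the level of genes, 1229 of the 8859 protein-coding genes with an eligible first intron held at least 1 first-intron peak, or 13.9%. Of these host genes, 750 held 1 peak, 240 held 2, 116 held 3, 51 held 4 and 72 held 5 or more. Peaks in the same intron were often close to each other, with a median of 4016.5 bp between neighboring summits, and 56.4% of neighbors were less than 5 kb apart. Neighboring peaks are therefore not independent observations. The share of host genes rose with the length of the intron, from 4.01% of first introns under 10 kb to 32.6% (29.1% to 36.3%) at 50 to 100 kb, and was 28.5% (24.4% to 33.0%) over 100 kb, whereas the density of peaks was 19.4 per Mb under 10 kb and 5.46 per Mb over 100 kb.

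Genes with a first-intron peak mostly had a promoter peak as well. A Myb summit within 3 kb of one of their own starts was found for 77.0% of the host genes (74.5% to 79.3%) and for 39.4% (38.3% to 40.5%) of the eligible genes without a first-intron peak, a difference of 37.6 percentage points (34.9 to 40.1). The difference was between 40.0 and 45.2 points within each of the 5 classes of intron length. Counted over sequence, first introns had 29.3 peaks per Mb (28.0 to 30.7) in genes with a promoter peak and 3.19 (2.88 to 3.53) in genes without, a ratio of 9.19 (8.23 to 10.3). Both kinds of peak came from the same library, and whether open chromatin along these genes had a part in this was not tested.

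**Figure D2:**
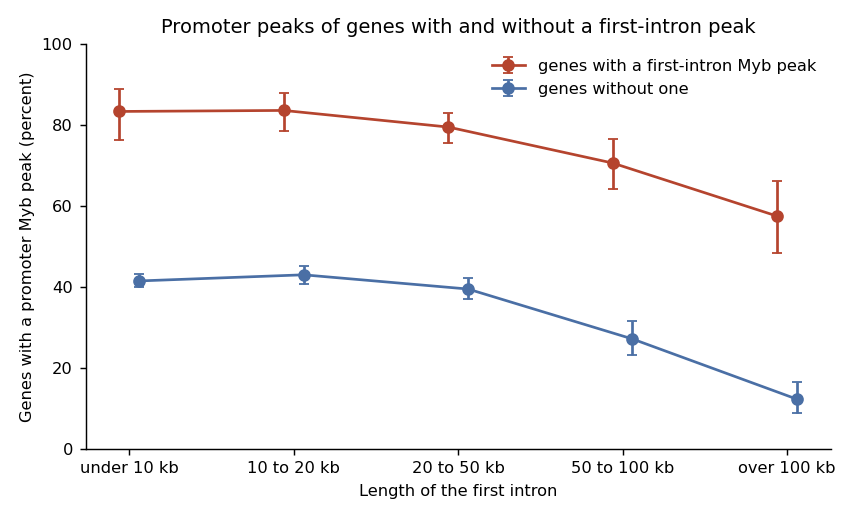
Share of genes with a Myb peak within 3 kb of one of their own starts, in percent, by the length of the first intron, for genes with and without a first-intron Myb peak. Points are shares and bars are exact 95% intervals. The shares are 83.3% against 41.5% for introns under 10 kb and 57.5% against 12.3% for introns over 100 kb.

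The other 283 host genes had no promoter peak. The strongest first-intron peaks among them lay in Sgms2, with 18.4-fold enrichment, Nrg2 with 16.0, Slc24a3 with 13.3, Garem1 with 12.9, Fndc3b with 12.7 and Rtn1 with 12.6, which were named here after their values had been seen. A Myb word lay within 50 bp of the summit in 21.5% of the peaks of such genes (17.4% to 26.0%) and in 17.2% of the peaks of genes with a promoter peak (15.6% to 19.0%), and these intervals overlapped.

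The intron with the most peaks was an annotation of unusual size. Gm20388, a gene model on chromosome 8, has a first intron of 4384418 bp, which spans 71 other protein-coding genes, and 92 first-intron peaks were counted in it. Of these, 64 lay inside another protein-coding gene and 33 also in that gene's first intron. The strongest, at 21.3-fold enrichment, lay 18401 bp from the nearest start of any transcript and 2809269 bp from the start of Gm20388. Without this model, 2238 first-intron peaks remained and the density ratio of first to later introns was 2.13 (2.02 to 2.25).

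Mbnl1, which encodes an RNA-binding regulator of splicing, came next with 29 peaks in a first intron of 122420 bp on chromosome 3. That is 304 peaks per Mb of its eligible sequence, against 12.5 over all eligible genes. None of its peaks stood out in strength, and the highest reached a fold enrichment of 7.44. Fam69a had 13 peaks in 62229 bp, of up to 9.58-fold. Pip4k2a, a phosphoinositide kinase, had 12 in 89699 bp, of up to 6.98-fold. Apbb1ip, an effector of Rap1 in integrin activation, had 10 peaks in 42431 bp, the strongest at 14.4-fold enrichment with 2 Myb words near the summit. Gse1 and Ubash3b also had 10 each. Each of these genes had at least 1 promoter peak, with 10 at the starts of Mbnl1.

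First introns of blood and signaling genes were compared with those of all eligible genes for 6 gene lists, 5 of which hold genes used by hematopoietic cells and 1 of which holds neuronal genes with long introns. The lists were chosen with earlier results of these data known, so their counts are a description. Each of the 5 blood lists had more hosts than the 13.9% of all eligible genes and a density above the 12.5 peaks per Mb (12.0 to 13.1) of all eligible first introns. The intervals of the densities take peaks as independent, although many share an intron, so they are too narrow for the spread between genes. Intron length was not matched in these comparisons. List medians ran from 11504.5 bp (receptors) to 27871 bp (transcription factors), against 12295 bp over all eligible genes. Over all eligible genes, the share of hosts was 12.5% at 10 to 20 kb and 25.0% at 20 to 50 kb. Density was 19.1 peaks per Mb at 20 to 50 kb and 5.46 over 100 kb. A promoter peak was present in 22 of the 25 eligible transcription factors, 18 of 22 receptors, 27 of 29 signaling genes, 30 of 34 chromatin regulators and 8 of 13 adhesion genes, against 3952 of all 8859 eligible genes, and the part of promoter peaks in the densities was not tested.

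Of the transcription factors of blood, 14 of 25 eligible genes (56.0%) held a first-intron peak, with 46.7 peaks per Mb (34.0 to 62.4), which was 3.72 times the density of all eligible genes and 6.84 times when the transcript with the longest spliced length was used. Elf1, an ETS factor, had 9 peaks of up to 18.3-fold enrichment, the strongest covered by 68 reads (52.8 to 86.2). Fli1, another ETS factor of stem cells and megakaryocytes, had 7 of up to 8.14-fold. Gfi1b, a repressor needed for erythroid and platelet formation, had 1 of 8.06-fold at 3104 bp from its start. Stat5b, which transmits cytokine signals, had 5 of up to 6.75-fold, the strongest with a Myb word. Of the 45 peaks of this list, Elf1 held 9, Etv6 8, Fli1 7 and Stat5b 5, so a few introns held most of them. Among the 11 genes without a peak were Spi1, Erg and Mecom, and the intron of Mecom alone offered 433731 bp.

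Of the cytokine and growth factor receptors, 12 of 22 (54.5%) were hosts, with 49.3 peaks per Mb (27.0 to 82.7). Igf1r, the receptor for insulin-like growth factor, had the strongest peak at 13.4-fold with 49 reads (36.3 to 64.8). Il17ra had a peak of 8.41-fold, Flt3, the receptor tyrosine kinase of multipotent progenitors, one of 7.95-fold, and Tnfrsf1b one of 6.88-fold. Kit, the receptor for stem cell factor, had a single peak of 2.22-fold, near the low end of the list. None of the strongest peaks of Igf1r, Il17ra, Flt3 and Tnfrsf1b had a Myb word within 50 bp.

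Of the kinases, phosphatases and adaptors, 15 of 29 (51.7%) were hosts, with 44.0 peaks per Mb (31.2 to 60.4). Ptpre, a receptor-type tyrosine phosphatase, had 6 peaks of up to 18.2-fold. Vav1, an exchange factor of blood cells, had 1 of 11.6-fold, Gab2, a docking adaptor, had 3 of up to 10.4-fold, and Rapgef1 had 5 of up to 7.90-fold with no promoter peak.

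Adhesion and homing genes had the highest share, 10 of 13 (76.9%), and 71.7 peaks per Mb (40.1 to 118). The strongest peaks of Cd44, the hyaluronan receptor, at 13.4-fold, of Cd34, a sialomucin of stem and progenitor cells, at 8.28-fold, and of Itga5, the fibronectin receptor subunit, at 7.71-fold each had a Myb word within 50 bp. Cd34, Itga5 and Cd9, whose peak reached 6.94-fold, had no promoter peak.

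Chromatin regulators mutated in myeloid neoplasia had the lowest share of the 5 blood lists, 12 of 34 (35.3%), at 47.0 peaks per Mb (31.7 to 67.2). This was 3.75 times the density of all eligible genes, but when only peaks whose -log10 q-value reached 5 were counted, the ratio was 1.61, and its interval of 0.522 to 3.75 included 1. Their peaks were weak, with a median of 4.03-fold for the strongest peak per gene, against 4.91 over all hosts. Asxl1, a Polycomb-associated factor, had 1 peak of 7.25-fold with 32 reads (21.9 to 45.2) and a Myb word that covered the summit. Arid1a, a subunit of the SWI/SNF remodeling complex, had 4 of up to 7.24-fold. The corepressor Bcor had 7 of up to 6.75-fold, and Kmt2e had 5 of up to 5.40-fold.

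The neuronal genes had 2 hosts of 24 (8.33%) and 0.265 peaks per Mb (0.0321 to 0.957). The peaks lay in Csmd1, at 7.90-fold, and Cntnap2, at 3.53-fold with 10 reads (4.80 to 18.4). None of the 24 genes had a promoter peak. Their introns were long, with 18 of 24 over 100 kb, and over all eligible genes 28.5% of introns of that length (24.4% to 33.0%) held a peak.

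**Figure D3:**
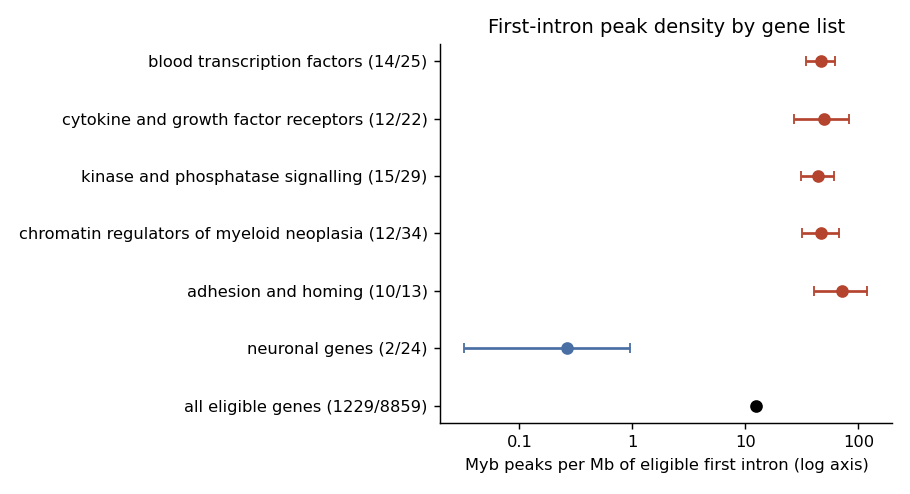
Density of first-intron Myb peaks, in peaks per Mb of eligible first-intron sequence on a log axis, for the 6 gene lists and for all eligible genes. Points are counts divided by sequence, and the numbers beside each name are genes with a peak and eligible genes. Bars are exact Poisson 95% intervals, which take peaks as independent although many share an intron. The 5 blood lists lie between 44.0 and 71.7 peaks per Mb, all eligible genes at 12.5 and the neuronal genes at 0.265.

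Among 8 genes picked from the study's text, Asxl1 alone had a first-intron peak under the rule. The Hoxb cluster, which the study also names, was not among the 8. Dntt, the terminal transferase of lymphoid progenitors, offered 4762 bp, Ep300, which encodes p300, 5814 bp, and Tet2, the DNA demethylase, 26715 bp, and no peak was listed in any of them. For Notch1, Srsf2, Runx1 and Myb, no base of the first intron of the longest transcript lay more than 3 kb from a start, so these genes could not be hosts. This depended on the transcript. When intron 1 of any protein-coding transcript was taken, Runx1, a master regulator of blood stem cells, had 12 peaks of up to 20.2-fold in 123530 bp, and Notch1 had 1 of 15.0-fold in 3893 bp.

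To see whether the recognition word of Myb lay under these summits, it was counted within 50 bp of each. It was present at 412 of 2297 summits, or 17.9% (16.4% to 19.6%), and in 10.6% (9.75% to 11.5%) of the windows of the same size 500 bp to either side, a ratio of 1.69. Over all 25793 Myb peaks the share was 16.7%. The same letters in reverse order, as a control with the same base composition, were present at 13.1% of the summits (11.8% to 14.6%) and 10.01% of the flanks, a ratio of 1.31. Most first-intron summits therefore had no Myb word in this window. The number of words per kb rose toward the summit from both sides. At 50 to 100 bp it was 2.26 per kb per peak on one side, the highest bin, and 1.85 on the other. At 500 to 550 bp the values on these sides were 1.13 and 1.16. The reversed letters rose less, to 1.55 in the highest bin, within 50 bp of the summit, against 1.15 at 500 to 550 bp on the same side.

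**Figure D4:**
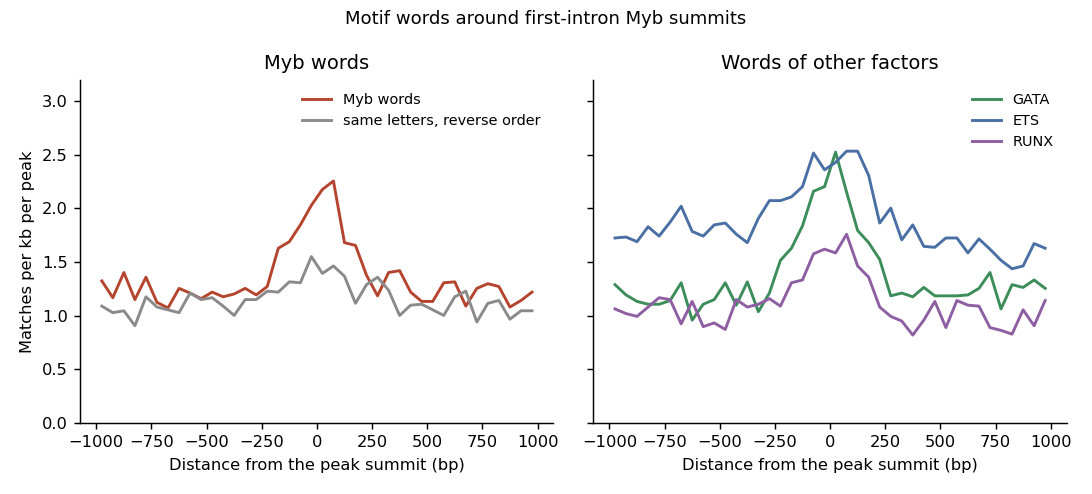
Matches per kb per peak of motif words, in bins of 50 bp, against the distance from the summit of first-intron Myb peaks. The left panel shows the Myb words and the same letters in reverse order, and the right panel the words of GATA, ETS and RUNX factors. On the right side of the summit, the Myb words reach 2.26 matches per kb at 50 to 100 bp and the GATA words 2.53 at 0 to 50 bp. The reversed letters stay at or below 1.55 throughout.

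All 4 forms of the word were more frequent at summits than in flanks. CAACTG was present at 8.88% of the summits, 1.87 times its flank share. TAACTG was present at 7.84%, a ratio of 1.53. The forms with CpG were rare, CAACGG at 1.44% and TAACGG at 1.57%, with ratios of 2.28 and 3. The word was more common at stronger peaks, as were GATA and ETS words, whose shares are given below. When the peaks were split by fold enrichment into 4 groups of nearly equal size, the share was 13.6% (10.9% to 16.7%) in the lowest group and 16.1% and 19.6% in the middle groups. In the highest group it was 22.6% (19.2% to 26.3%), and the flank shares of the lowest and highest groups were 11.2% and 9.28%.

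Compared with later introns, the Myb word was slightly less common in first introns. The difference was -2.23 percentage points, with an interval of -4.30 to -0.134 that ended close to 0. With the 2 forms that lack CpG it was -0.738 (-2.68 to 1.24), and its interval included 0. Summit windows of first introns held 1.20 CpG on average and those of later introns 1.30. Against intergenic peaks the difference was -1.54 (-3.48 to 0.451) and against peaks within 3 kb of a start 3.27 (1.65 to 4.99).

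Words of other blood transcription factors were also more frequent at these summits than beside them. GATA words (AGATAA or TGATAA) were present at 20.3% (18.7% to 22.0%), 1.90 times the flank share of 10.7%, and over all Myb peaks they were present at 13.8%. The word of the CEBP factors of myeloid cells, TTGCNNAA, was present at 7.10%, 1.81 times its flank share, and at 6.16% over all peaks. RUNX words (TGTGGT or TGCGGT) were present at 13.9%, a ratio of 1.61, and at 12.2% over all peaks. ETS words (CGGAAG or AGGAAG) were present at 19.6%, a ratio of 1.42, and at 20.4% over all peaks. E-box words (CAGATG or CAGCTG) were present at 16.2%, a ratio of 1.35, and the MEIS word, TGACAG, at 8.71%, a ratio of 1.27. These had shares of 14.2% and 8.02% over all peaks. All words were read on both strands, and words of different families can overlap. From the lowest to the highest group of fold enrichment, GATA words rose from 17.2% (14.2% to 20.5%) to 24.0% (20.6% to 27.8%). ETS words rose from 17.7% (14.7% to 21.1%) to 24.7% (21.2% to 28.5%). RUNX went from 14.6% to 18.6%, E-box from 14.3% to 19.4%, CEBP from 6.02% to 8.30% and MEIS from 7.40% to 8.13%, with overlapping intervals. AP-1 and IRF, described below, went from 2.58% to 3.36% and from 2.58% to 1.41%.

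For the words of factors that bind mainly at promoters or boundaries, no difference between the summits and their flanks was detectable within 50 bp. The interval of the NFY word, CCAAT, at 11.7% (10.4% to 13.1%), covered its flank share of 11.6%. That of the SP/KLF words (GGGCGG or GGGTGTGG), at 2.31% (1.73% to 3.01%), covered 2.26%, although within 100 bp the SP/KLF share was 5.70% (4.79% to 6.73%) against 4.07% (3.52% to 4.68%) in the flanks. That of the CTCF consensus, at 1.44% (0.991% to 2.01%), covered its flank share of 1.33%. Over all Myb peaks these shares were 11.1%, 7.96% and 2.43%. The AP-1 word, TGACTCA, at 2.44%, and the consensus of the IRF factors, at 1.78%, were rare.

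**Figure D5:**
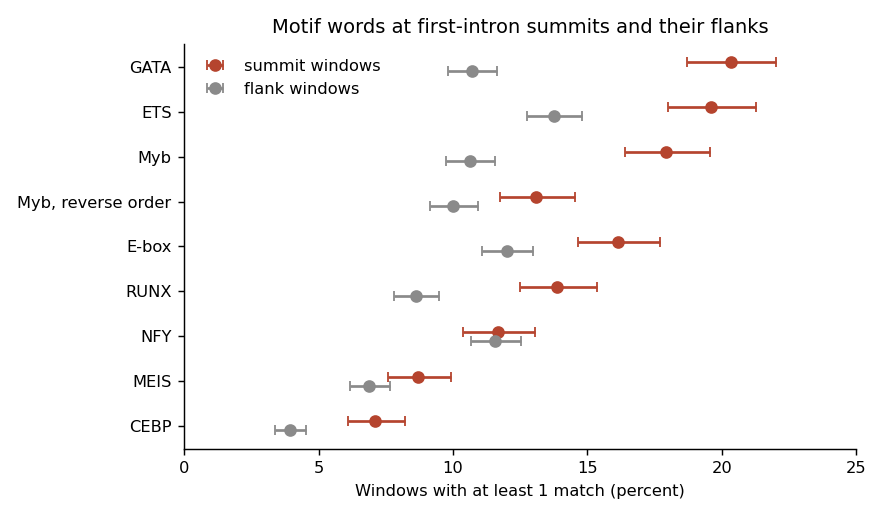
Share of 101-bp windows with at least 1 match, in percent, at first-intron Myb summits and in the windows 500 bp to either side, for the words of 8 factor families and the reversed Myb letters. Points are shares and bars are exact 95% intervals. GATA is highest at 20.3% against 10.7% in the flanks, Myb has 17.9% against 10.6%, and NFY has 11.7% against 11.6%.

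Among 12 other factor families, none differed from later introns with an interval that excluded 0. Against intergenic peaks, GATA words were more common in first introns by 2.29 percentage points (0.310 to 4.32), and ETS words were less common, with a difference of -3.53 (-5.55 to -1.45), as were E-box words, at -2.47 (-4.34 to -0.537), and SP/KLF words, at -1.80 (-2.63 to -0.906). These are 4 of 12 comparisons, with intervals that were not adjusted for their number. Without any word chosen beforehand, 1607 words of 6 letters that had at least 50 flank matches were ranked by the ratio of summit to flank share. The first was CTTATC, which reads GATAAG on the other strand, at 2.79. CAACTG ranked 6 of 1607 and TAACTG ranked 36. The Myb forms CAACGG and TAACGG, with ratios of 2.28 and 3, had too few flank matches to be ranked.

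A Myb word and the word of another factor shared some windows. In windows with a Myb word, GATA words were present in 23.5% and in windows without one in 19.6%, a difference of 3.92 points (-0.350 to 8.58). For CEBP the shares were 9.71% and 6.53%, a difference of 3.18 points (0.410 to 6.59). The differences for RUNX, ETS, E-box, MEIS, AP-1 and IRF had intervals that included 0. Of the 8 families compared in this way, 1 thus had an interval above 0.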

How the data were processed

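Myb ChIP-Seq was performed on Lin- bone marrow cells of WT mice, with 1 Myb library and 1 IgG library. Per the study's methods and the submitters' processing notes, reads were trimmed with Cutadapt 1.15, aligned to mm10 with BWA 0.7.13, deduplicated with Picard, filtered on mapping quality and the mm10 blacklist, and used to call peaks with MACS2 2.1.1.20160309 against IgG. Peaks were kept by overlap between pseudo-replicates, which are subsets of the reads of 1 library. In the deposited list, fold enrichment is a ratio of Myb signal to background from the IgG library at the summit. It was read here with 1 added to both sides and a background of at least the genome-wide value. The p-value and q-value were deposited by the authors as -log10 values. The methods state a q-value limit of 0.05, and 7.24% of all rows were above it.

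Summits were placed in GENCODE M21 introns. The members and gene lists were chosen with earlier results of these data known. Density is peaks per Mb of sequenced bases that meet the same rule. Reads were recovered from fold enrichment and p-value at a pileup scale of 0.769, which gave whole numbers in 100% of the rows, within 0.001 of the -log10 p-value. Depth per library is not given in the list. Intervals are exact Clopper-Pearson (shares), Poisson (counts), Newcombe (differences of shares), binomial (ratios of densities) and order-statistic (medians) 95% intervals. PCR copies and neighboring peaks are not independent. Named peaks were the 12 strongest, those of the 5 introns with most peaks, those of the 4 strongest hosts per list and those of 8 genes of the study. Sequence windows were written for the 8 strongest peaks and the strongest per list, outside chromosome 18, of which 10 are printed. The windows not printed held neither a Myb nor a GATA word. Scripts (Python 3.11.15, SciPy 1.17.1) were tested on simulated data. Alternatives covered q-value limits, transcript choice, distance limits, peak width, motif windows and forms. Filtering on a q-value of 0.05 and removal of Gm20388 were added after the data had been seen.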

Additional observations from a re-analysis of the deposited data

How the results depend on the processing

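Counts and shares moved with the strength limit. At a -log10 q-value of at least 5, 893 first-intron peaks were left, with a median fold enrichment of 6.23, a median distance of 18234 bp to the host start and a Myb word at 21.5% of the summits. At that limit 7.27% of the eligible genes were hosts, and 53.4% of these had a promoter peak, 28.2 points above the other genes. At a limit of 2, the median fold enrichment was 4.70, the share of hosts 12.3% and their promoter share 73.5%. Removing peaks with a q-value above 0.05 gave a median fold enrichment of 4.51.

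The transcript that defines intron 1 moved the share of intronic peaks in first introns to 50.7% for any protein-coding transcript and 38.8% for the longest spliced one, and the median distance to 13466 and 14589 bp. Beyond 5 kb from every start, the share was 38.2%, the density ratio 2.04 and the distance 19881 bp, and with protein-coding starts only the share was 39.4%. The Myb share was 9.36% within 25 bp, 33.1% within 100 bp, 15.9% without CpG forms and 57.8% for the core AACNG. A promoter window of 1 kb gave a promoter share of 70.4%.

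The motif ratios to the flanks of NFY, SP/KLF and CTCF, whose intervals included 1, fell on either side of it, from 0.931 to 1.01 for NFY, 0.815 to 1.401 for SP/KLF and 0.963 to 1.17 for CTCF. The SP/KLF ratio within 100 bp, 1.401 (1.18 to 1.65), was the exception with an interval above 1. The density ratio stayed above 1 and the Myb share above its flanks under each alternative run for them. The lower Myb share than in later introns had an interval that included 0 under 8 of 13 alternatives, with differences from -3.28 to -0.738 points. For chromatin regulators, the density relative to all genes fell from 3.75 to 1.61 (0.522 to 3.75) at a -log10 q-value of at least 5. No paired analysis was possible because there was 1 library of each kind, which also leaves the variation between mice unknown. With a median of 17 reads per summit, single weak peaks cannot be ranked.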
